A study of Mus musculus with 15 samples.

Results

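Endothelial cells line every blood and lymphatic vessel, and the 42 genes described here are ones whose transcripts are used to recognise them. They were taken by gene symbol from a table of 24030 genes measured by RNA sequencing of whole brown adipose tissue of mice, a fat whose cells burn fuel to make heat, and all 42 were found and passed the filter on low counts that left 15083 genes for testing. They fall into 6 groups by role. The 17 genes of endothelium in general are called surface and junction genes, though the secreted Egfl7 and early-response Apold1 are among them. The others are 4 genes that respond to the drag of flowing blood (shear stress), 8 transcription factors and 4 Notch pathway and arterial genes. Last come 5 genes of caveolae, diaphragms and water channels, and 4 lymphatic genes.

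The tissue came from mice with a knockout of DJ-1, the protein encoded by Park7, restricted to brown fat (KO), and from flox mice that the labels call wild type (WT). Both genotypes were kept for 8 weeks either at room temperature or at 29 °C, a temperature near thermoneutrality for mice at which brown fat has little heat to make. There were 4 WT and 4 KO libraries at room temperature, 4 WT libraries at 29 °C and 3 KO libraries at 29 °C. The labels give neither the promoter that drove the deletion nor the age or sex of the mice, and whether endothelial cells of the tissue carried the deletion was not measured. The labels do not tie libraries to animals, and the p-values therefore rest on the spread among libraries, which may be technical.

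Brown fat is among the most densely vascularised tissues, and its capillaries bring oxygen and fatty acids to the adipocytes and carry heat away. Endothelial cells are held together by junction proteins such as VE-cadherin (Cdh5) and claudin-5 (Cldn5). They sense flow through a pathway in which the kinase ERK5 and MEF2 factors switch on the transcription factors KLF2 and KLF4, which in turn maintain genes such as endothelial nitric oxide synthase (Nos3). Lymphatic endothelium is set apart by the transcription factor PROX1 and by the receptor for lymphatic growth factors, VEGFR3 (Flt4).

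The library labels were checked against Park7, the targeted gene. It was at 110 ± 1.66 CPM (the library-size-scaled read count, here with TMM scaling, SD, n = 4) in WT and 28.2 ± 4.03 (n = 4) in KO at room temperature, and at 118 ± 11 (n = 4) and 31.7 ± 5.46 (n = 3) at 29 °C. All KO libraries were below all WT libraries in both settings (exact two-sided permutation test, p = 0.0286 in each, the smallest these group sizes allow). Total counts ran from 23977448 to 26789246 in 14 libraries, and the KO library 1 at 29 °C had 38800967. The share of counts from the mitochondrial genome was 22.7% to 27.4%, except in the WT group at 29 °C with 30.2% to 41.6%. Skeletal muscle transcripts were seen in WT library 2 and KO libraries 2 and 3 at 29 °C (0.148%, 0.0543% and 0.181% of counts), against at most 0.00118% elsewhere, and counts without these libraries are given where they change a result.

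The promoters of 4 genes are shown because these genes, picked after their values were seen, had the largest differences between genotypes at room temperature among the 42: the flow-induced factors Klf2 and Klf4, the early-response vascular gene Apold1 and the junction gene Cldn5. Each is the RefSeq sequence (GRCm38.p6) from 250 bases before to 50 bases after the gene's start, written 5′ to 3′ along the gene. Capitals mark a MEF2-type motif, CTA and TAG with any 4 bases between them, and the core of a cyclic AMP response element, TGACG, searched on both strands, so that TGACG on the opposite strand reads CGTCA. The regions are chr8:72318812-72319111 on the plus strand for Klf2, chr4:55532426-55532725 on the minus strand for Klf4, chr6:134981751-134982050 on the plus strand for Apold1 and chr16:18776597-18776896 on the plus strand for Cldn5.
Klf2: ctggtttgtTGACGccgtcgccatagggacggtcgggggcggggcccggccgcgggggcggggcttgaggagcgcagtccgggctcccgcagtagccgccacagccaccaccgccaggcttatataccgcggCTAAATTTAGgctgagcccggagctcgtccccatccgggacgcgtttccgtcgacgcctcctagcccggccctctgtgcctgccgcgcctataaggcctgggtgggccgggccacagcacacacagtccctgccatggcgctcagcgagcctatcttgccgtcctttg
Klf4: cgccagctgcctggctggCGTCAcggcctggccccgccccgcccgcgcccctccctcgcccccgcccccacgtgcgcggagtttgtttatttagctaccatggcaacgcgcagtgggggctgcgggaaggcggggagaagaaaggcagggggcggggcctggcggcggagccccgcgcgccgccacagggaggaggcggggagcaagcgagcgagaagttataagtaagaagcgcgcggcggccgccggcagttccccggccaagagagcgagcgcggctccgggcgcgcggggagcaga
Apold1: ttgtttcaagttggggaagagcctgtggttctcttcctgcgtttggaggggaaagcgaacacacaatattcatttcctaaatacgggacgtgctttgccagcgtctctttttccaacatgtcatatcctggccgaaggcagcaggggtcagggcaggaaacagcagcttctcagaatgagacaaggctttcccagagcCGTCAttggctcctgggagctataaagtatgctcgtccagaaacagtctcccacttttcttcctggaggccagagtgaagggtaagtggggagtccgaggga
Cldn5: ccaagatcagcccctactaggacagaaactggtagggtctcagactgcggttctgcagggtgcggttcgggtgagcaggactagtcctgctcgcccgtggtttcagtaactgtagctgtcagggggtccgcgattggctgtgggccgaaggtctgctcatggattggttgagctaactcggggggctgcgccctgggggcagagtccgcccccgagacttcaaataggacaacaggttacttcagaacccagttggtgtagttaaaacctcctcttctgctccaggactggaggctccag
The Klf2 promoter held the MEF2-type motif from 118 to 109 bases before the start, and it was the only one of 32 promoters of the 24 matched endothelial genes to do so. Of all 32851 promoters of this length, 3.69% held it. TGACG was present in the promoters of Klf2, Klf4 and Apold1 and in 7 of the 32, against 20.8% of all promoters. The Cldn5 window held neither motif. The 2 motifs do not overlap in these windows, and a match describes letters only.

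Before the comparisons, the levels place the genes in the tissue. Per kilobase of exon, Cav1, which codes for the main coat protein of caveolae and is also made by adipocytes, was the highest of the 42 in WT at room temperature at 238.5 CPM per kb, followed by the water channel Aqp1 at 101.1 and Aqp7, a glycerol channel that adipocytes also make, at 64.7. At 29 °C in WT the order changed at the top, with Aqp1 at 474.0, Cav1 at 286.8, Cldn5 at 208.9 and Klf2 at 129.7 CPM per kb. Prox1 was the lowest in both groups, at 0.00877 and 0.0545 CPM per kb, and was counted 0 to 24 times in a library. The defining endothelial markers Pecam1 and Cdh5 were measured in every library, Pecam1 between 71.9 and 248 CPM. Which cells of the tissue made the transcripts of the 42 genes was not measured.

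**Figure D1:**
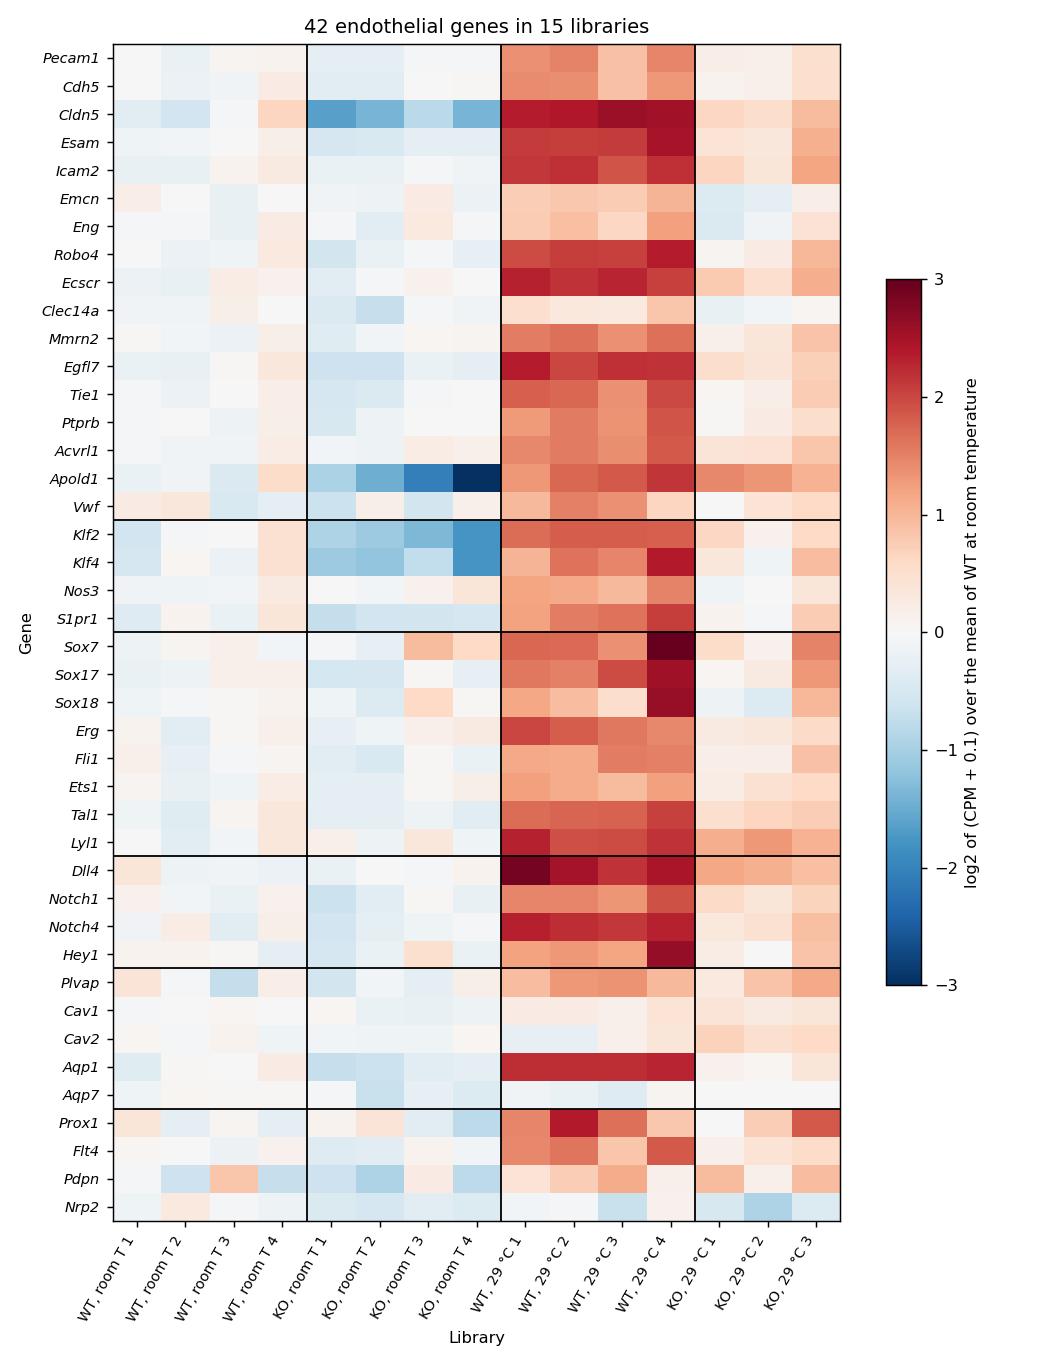
Level of each of the 42 genes (rows, ordered by role, black lines between roles) in each of the 15 libraries (columns) as log2 of CPM + 0.1 over the mean of WT at room temperature, red above and blue below. The 4 WT libraries at 29 °C are red in nearly all rows, the 3 KO libraries at 29 °C are pale, and blue cells of the KO libraries at room temperature are deepest for Cldn5, Apold1, Klf2 and Klf4.

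At room temperature most of the endothelial genes leaned lower in KO by small amounts, and a junction gene and a flow-responsive factor passed the test. Cldn5 and Klf2 were lower in KO past the threshold (edgeR quasi-likelihood test, Benjamini-Hochberg adjusted p below 0.05 over all genes tested), and 0 of the 42 were called higher. Over all genes 0.186% were called lower and 0.053% higher. The fitted log2 fold change was below 0 for 36 of the 42, and its median was -0.16, against 0.01 over all genes tested. In bulk tissue, fewer endothelial cells and less RNA of a gene per endothelial cell cannot be told apart.

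Cldn5, the tight-junction protein that seals endothelium, was at 41.9, 36.0, 51.7 and 83.2 CPM in the WT libraries at room temperature and at 17.2, 20.1, 30.5 and 20.1 CPM in the KO libraries. Every KO library was below every WT library. The fitted difference was -1.28 ± 0.23 (log2, SE), a 2.42-fold lower level (adjusted p = 0.0423 by edgeR). Cldn5 is a gene of chromosome 16, from 18776847 to 18778262 on the plus strand (GRCm38).

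Klf2, the flow-induced transcription factor, was at 46.7, 67.5, 70.1 and 95.8 CPM in WT and at 36.9, 32.7, 27.5 and 20.3 CPM in KO. The groups did not overlap, although the lowest WT library lay close to the highest KO library. The fitted difference was -1.26 ± 0.20 (log2, SE), or 2.39-fold lower (adjusted p = 0.0216 by edgeR). Both calls depend on single libraries and on the tool. Neither gene was called when WT library 3, WT library 4, KO library 2 or KO library 4 was left out. Nor was either called when only the 8 room-temperature libraries were fitted, while DESeq2 called 4 of the 42 lower. Calls over all genes moved likewise, with 28 of 15083 lower in the main fit and 139 of 14198 with DESeq2. They were 4 to 15 in those leave-one-out fits and 21 of 13525 with only the room-temperature libraries. Of the pair, 1 was called without WT library 2 (Cldn5) and without any single library at 29 °C (Klf2). The log2 difference stayed negative in all of these fits.

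Apold1 and Klf4 had differences of like or larger size that did not pass the test. Klf4, the other flow-induced KLF factor, was at 33.3, 49.3, 42.3 and 65.0 CPM in WT and 22.2, 20.7, 28.5 and 13.9 CPM in KO (log2 difference -1.16 ± 0.33 SE, edgeR adjusted p = 0.214). Apold1 was at 24.7, 26.4, 21.0 and 42.1 CPM in WT and at 14.7, 10.2, 6.85 and 3.33 CPM in KO (-1.71 ± 0.36, edgeR adjusted p = 0.0966). Neither gene's groups overlapped, and the same held for Esam, S1pr1 and Nrp2, so that with Cldn5 and Klf2 the KO libraries lay wholly below WT for 7 of the 42 genes and wholly above for 0. Over all genes 4.28% had their KO libraries wholly below WT. Nos3, a gene that KLF2 maintains, was at 26.1 ± 3.49 CPM (SD, n = 4) in WT and 28.2 ± 4.03 (n = 4) in KO, with ranges that overlapped (log2 difference 0.12 ± 0.14 SE, edgeR adjusted p = 0.808).

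Counts relative to Pecam1, the general endothelial marker, were compared library by library for the same genes. The count ratio of Cldn5 to Pecam1 lay between 0.469 and 0.874 in WT and between 0.232 and 0.355 in KO at room temperature. For Klf2 the ratio lay between 0.523 and 1.01 in WT and between 0.235 and 0.498 in KO. In both genes the ratio, too, was lower in each KO library than in any WT library. The same held for Klf4, Apold1 and Esam. The ratio of Nos3 went the other way, from 0.263 to 0.329 in WT and from 0.332 to 0.391 in KO. That of Cdh5 to Pecam1 stayed between 1.29 and 1.62 in all 15 libraries. How often such ratios part between genotypes over all genes was not measured.

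**Figure D2:**
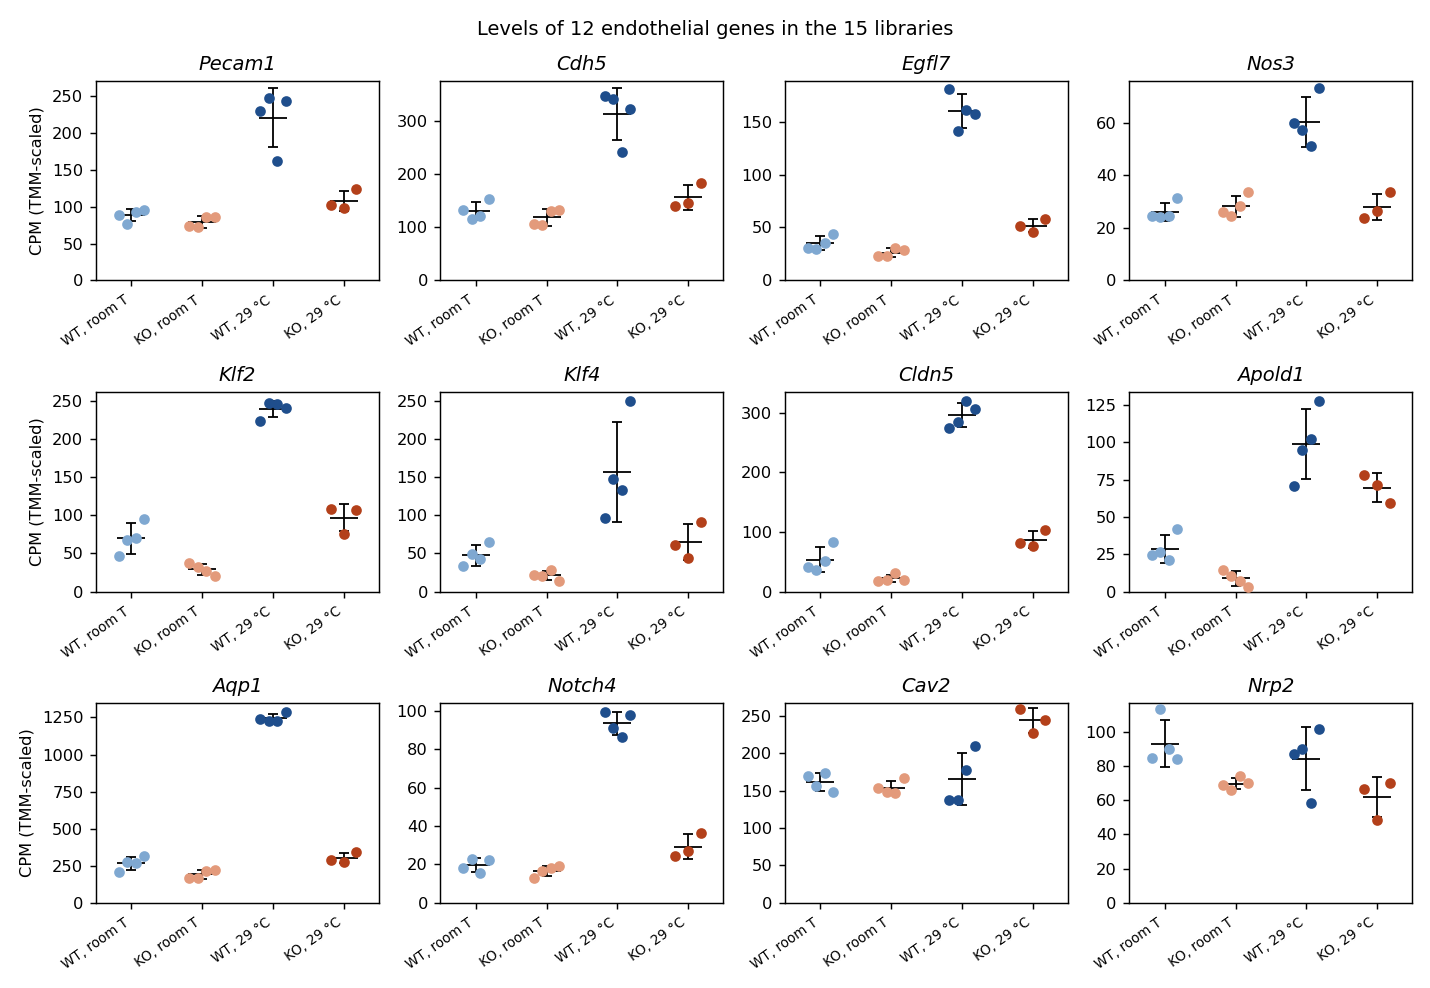
CPM (TMM-scaled, linear axis from 0) of 12 endothelial genes in each library, with 1 point a library, the group mean as a horizontal bar and the SD as whiskers, for the 4 groups. The mean of WT at 29 °C is above those of the other 3 groups for 10 of the 12 genes, by the widest margin for Aqp1, while Cav2 is highest in KO at 29 °C and Nrp2 shows no such rise.

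At 29 °C the difference between genotypes spread over nearly the whole set. Of the 42 genes, 34 were called lower in KO and 1, the caveolar gene Cav2, was called higher. Over all genes 20% were called lower and 24.7% higher in this comparison. The median log2 fold change was -1.11 over the 42 genes and 0.04 over all genes tested, and the level in KO was a median 46.5% of that in WT, from 24.3% for Aqp1 to 147.5% for Cav2. The 3 KO libraries lay wholly below the 4 WT libraries for 32 of the 42 genes, against 19.6% of all genes. Without the 3 libraries with muscle transcripts, 30 of the 42 genes were called lower, which leaves a single KO library at 29 °C that is assumed to vary like the other groups.

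Among the 17 surface and junction genes, 16 were lower in KO at 29 °C and the median log2 difference was -1.08. The exception was Apold1, at 98.7 ± 23.2 CPM (SD, n = 4) in WT and 69.6 ± 9.58 (n = 3) in KO, where the ranges overlapped (log2 difference -0.50 ± 0.37 SE, edgeR adjusted p = 0.291). Egfl7, a secreted regulator of vessel tube formation, was at 180, 142, 161 and 158 CPM in WT and 50.9, 46.1 and 58.0 CPM in KO. Its log2 difference was -1.63 ± 0.15 (SE, edgeR adjusted p = 1.1e-06).

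Esam, an adhesion molecule of endothelial junctions, was at 161, 157, 160 and 206 CPM in WT and 49.4, 47.4 and 77.4 CPM in KO, a log2 difference of -1.56 ± 0.16 (SE, edgeR adjusted p = 2.1e-06). Ecscr, a surface protein of migrating endothelium, was at 29.9, 27.2, 29.5 and 25.1 CPM in WT and at 10.4, 8.45 and 12.8 CPM in KO. Its log2 difference was -1.40 ± 0.15 (SE, edgeR adjusted p = 3.7e-06). In Egfl7, Esam and Ecscr the highest KO library was far below the lowest WT library. Cldn5 differed by -1.76 ± 0.26 on the log2 scale (edgeR adjusted p = 9.6e-05), and of the 16 it was the gene with the largest difference, while the platelet-adhesion protein gene Vwf (-0.82 ± 0.26) and the lectin gene Clec14a (-0.57 ± 0.17) were nearer to level. Pecam1 and Cdh5 were at 2.04-fold and 2-fold lower levels.

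All 4 flow-responsive genes were lower in KO at 29 °C, with a median log2 difference of -1.29. Nos3 was at 59.7, 57.1, 51.0 and 73.3 CPM in WT and 23.9, 26.5 and 33.6 CPM in KO (log2 difference -1.11 ± 0.15 SE, edgeR adjusted p = 3.1e-05). Klf2 was at 224, 247, 245 and 241 CPM in WT and 108, 76.0 and 106 CPM in KO (-1.31 ± 0.22, edgeR adjusted p = 2.8e-04). The receptor gene S1pr1, which stabilises junctions in response to a blood lipid, was at 156, 198, 210 and 284 CPM in WT and 72.6, 66.7 and 115 CPM in KO (-1.32 ± 0.22, edgeR adjusted p = 3.0e-04). None of these groups overlapped. Klf4 was 2.41-fold lower (edgeR adjusted p = 0.0113), with WT libraries from 95.7 to 249 CPM and KO libraries from 43.7 to 90.4 CPM.

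Of the 8 transcription factors, 7 were lower in KO at 29 °C and the median log2 difference was -1.24. Erg, an ETS factor that maintains endothelial identity, was at 49.6, 43.7, 37.2 and 33.3 CPM in WT and 14.7, 15.6 and 18.4 CPM in KO (log2 difference -1.33 ± 0.16 SE, edgeR adjusted p = 9.9e-06). Tal1, shared by blood and endothelial development, was at 11, 11.4, 11.7 and 14.2 CPM in WT and 4.73, 5.26 and 5.65 CPM in KO (-1.21 ± 0.16, edgeR adjusted p = 1.9e-05). Its relative Lyl1 was at 8.64, 6.61, 6.74 and 7.79 CPM in WT and 3.61, 4.25 and 3.5 CPM in KO (-0.98 ± 0.18, edgeR adjusted p = 4.8e-04). In each of these 3 genes the KO libraries were all below the WT libraries. Sox18 was not called (-1.26 ± 0.49, edgeR adjusted p = 0.053), with WT library 4 at 128 CPM and the other WT libraries between 30.3 and 46.7 CPM.

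The 4 Notch and arterial genes were all lower in KO at 29 °C, and their median of -1.41 was the lowest of the 6 role groups. The receptor gene Notch4 was at 99.5, 91.1, 86.4 and 97.9 CPM in WT and 24.6, 26.8 and 36.6 CPM in KO (log2 difference -1.68 ± 0.16 SE, edgeR adjusted p = 1.6e-06). Dll4, the Notch ligand of arteries and sprouting tips, was at 65.1, 50.3, 39.9 and 49.0 CPM in WT and 19.8, 18.6 and 16.5 CPM in KO (-1.48 ± 0.16, edgeR adjusted p = 3.3e-06). Notch1 was at 90.2, 90.6, 81.4 and 122 CPM in WT and 48.5, 42.2 and 52.3 CPM in KO (-1.01 ± 0.16, edgeR adjusted p = 9.4e-05). No KO library reached a WT library in any of them. Hey1, a target gene of Notch, was lower as well (-1.34 ± 0.36, edgeR adjusted p = 0.00764), with WT library 4 at 23.2 CPM and the other WT libraries between 8.30 and 9.13 CPM.

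The 5 genes of caveolae, diaphragms and water channels did not move together. Aqp1 was at 1237, 1228, 1225 and 1290 CPM in WT and 291, 278 and 339 CPM in KO at 29 °C, a 4.12-fold lower level (log2 difference -2.04 ± 0.14 SE, edgeR adjusted p = 1.8e-07). The groups were far apart, and the difference was the largest of the 42. Cav2, a partner of Cav1 in the caveolar coat, was at 137, 137, 178 and 209 CPM in WT and 260, 227 and 245 CPM in KO (0.56 ± 0.13, edgeR adjusted p = 0.00217). All KO libraries were above all WT libraries, but the gene was not called with an added limit of 1.5-fold, nor without the 3 libraries with muscle transcripts (edgeR adjusted p = 0.0576). Cav1 was at 988 ± 73.7 CPM in WT (SD, n = 4) and 1036 ± 42.3 in KO (n = 3), and Aqp7 at 166 ± 22.6 and 182 ± 3.08 CPM. Plvap, the protein of the diaphragms that bridge caveolae and fenestrae, was at 17.0, 22.1, 22.8 and 17.6 CPM in WT and 11, 16.2 and 19.7 CPM in KO, which overlapped (-0.35 ± 0.24, edgeR adjusted p = 0.256). Brown adipocytes, which also make Cav1, Cav2 and Aqp7, had 8 of 10 marker genes called higher in KO at 29 °C, against 24.7% of all genes. The part of these cells in the values was not tested.

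**Figure D3:**
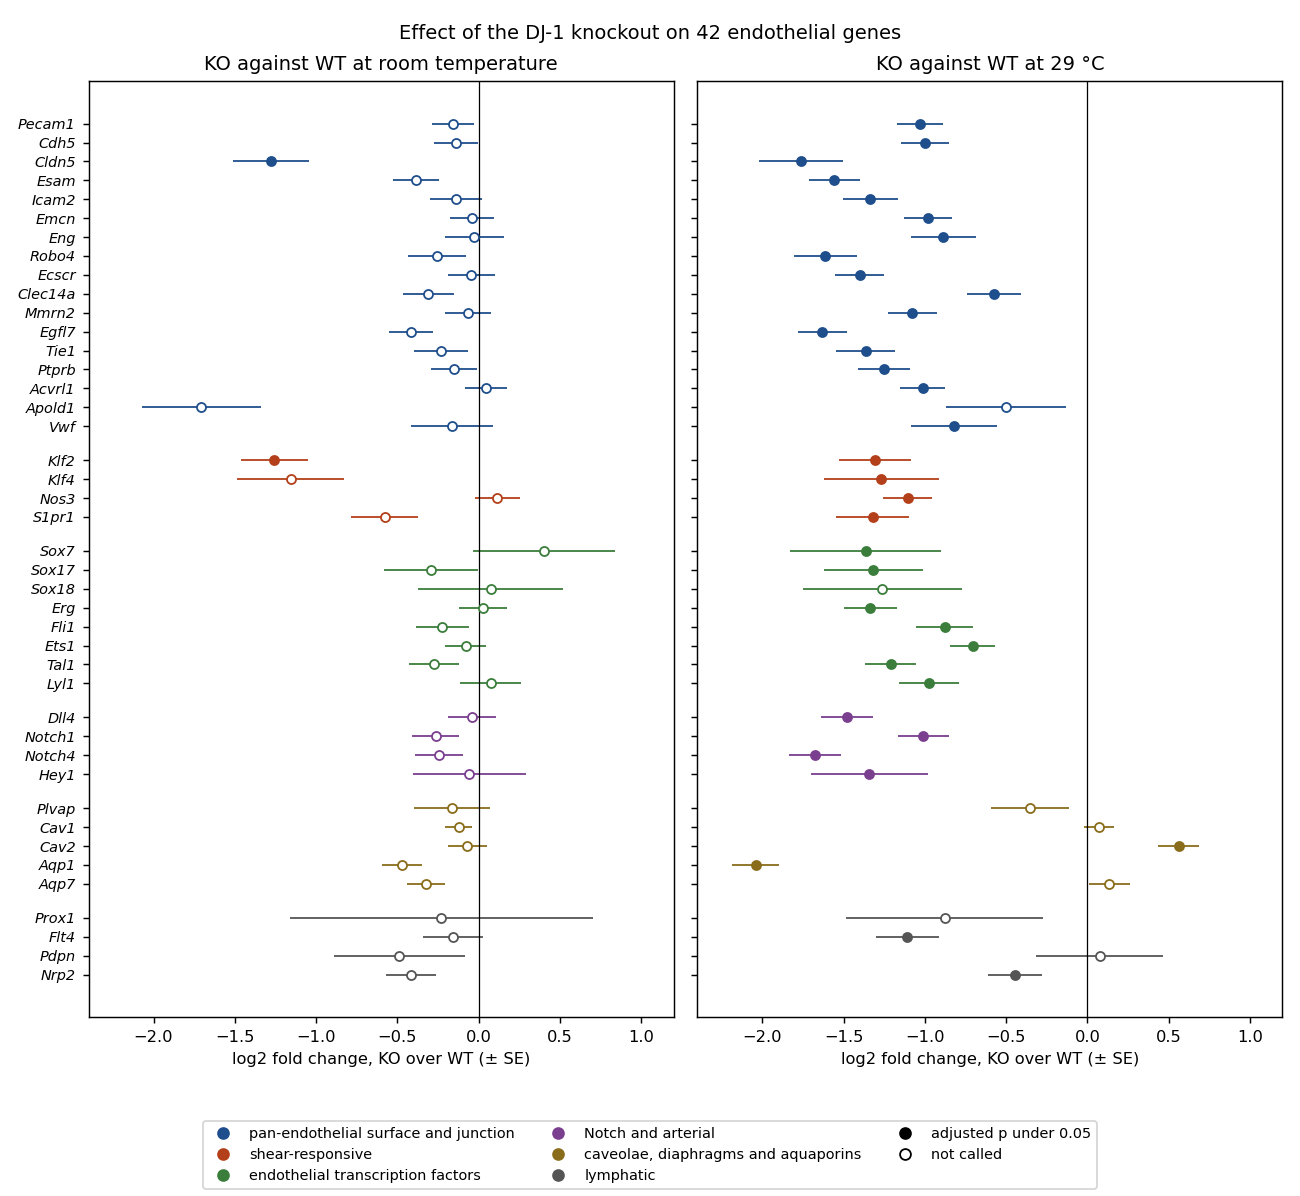
Log2 fold change of KO over WT (points, with SE as whiskers) for the 42 genes in the order of the level map, at room temperature in 1 panel and at 29 °C in the other, coloured by role, filled where the gene was called and open where it was not. At room temperature the points lie between -0.58 (S1pr1) and 0.41 (Sox7) apart from Cldn5, Klf2, Klf4 and Apold1, and at 29 °C most lie near -1, with Aqp1 lowest at -2.04 and Cav2 at 0.56.

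Warm housing was also compared with room temperature within each genotype. In WT, 38 of the 42 genes rose at 29 °C and 0 fell. Over all genes 35.9% were called higher and 32.8% lower, so that calls in both directions were common in the tissue. The median log2 fold change of the 42 was 1.61, against 0.06 over all genes tested, and the WT libraries at 29 °C lay wholly above those at room temperature for 38 of the 42, compared with 32.2% of all genes. Both counts include Prox1, which passed the filter on low counts only through libraries at 29 °C, and both are 37 for the other 41 genes. In KO, 30 of the 42 rose and 0 fell, against 24.3% higher and 21.7% lower over all genes, with a median log2 fold change of 0.66 for the 42 and 0.04 over all genes tested. The KO libraries lay wholly above for 30 genes, against 24.7% of all genes. These comparisons share libraries with those of genotype and are not separate evidence.

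The count in KO rests partly on single libraries. It was 21 without KO library 3 at 29 °C. Calls over all genes fell as well, from 3664 of 15083 higher to 2886 of 15329. Leaving out the 3 libraries with muscle transcripts leaves 1 KO library at 29 °C. The count in KO was lower still without them, while the count in WT was 38. In linear units the level at 29 °C was a median 3.05-fold of that at room temperature in WT and 1.58-fold in KO. For 13 of the 42 genes every KO library at 29 °C lay between the room-temperature libraries of both genotypes and the WT libraries at 29 °C, against 4.99% of all genes tested.

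By role, all 17 surface and junction genes, all 4 flow-responsive genes, all 8 transcription factors and all 4 Notch genes rose in WT, with median log2 changes of 1.57, 1.68, 1.79 and 2.01. In KO 13, 3, 5 and 3 of them rose, with medians of 0.55, 1.25, 0.60 and 0.81. Of the 5 genes of caveolae, diaphragms and water channels 3 rose in WT and 4 in KO, with medians of 0.27 and 0.66, so that here the median was larger in KO. Of the 4 lymphatic genes 2 rose in each genotype, with medians of 1.09 and 0.90 that include Prox1. In WT the 2 were Flt4 and Prox1, and Prox1 passed the filter on low counts only through libraries at 29 °C. In KO they were Flt4 and Pdpn. Dll4 rose by 2.53 ± 0.15 (log2, SE) in WT and 1.09 ± 0.16 in KO, and Aqp1 by 2.23 ± 0.13 and 0.66 ± 0.13. Klf2 rose by nearly equal amounts, 1.77 ± 0.20 in WT and 1.72 ± 0.22 in KO. Nos3 rose by 1.21 ± 0.14 in WT, and its change in KO was -0.01 ± 0.15 (edgeR adjusted p = 0.95). Emcn, a surface glycoprotein of capillaries and veins, and Eng, a co-receptor for BMP signals, rose by 0.84 and 0.90 in WT, with changes of -0.10 and 0.04 in KO that were not called.

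**Figure D4:**
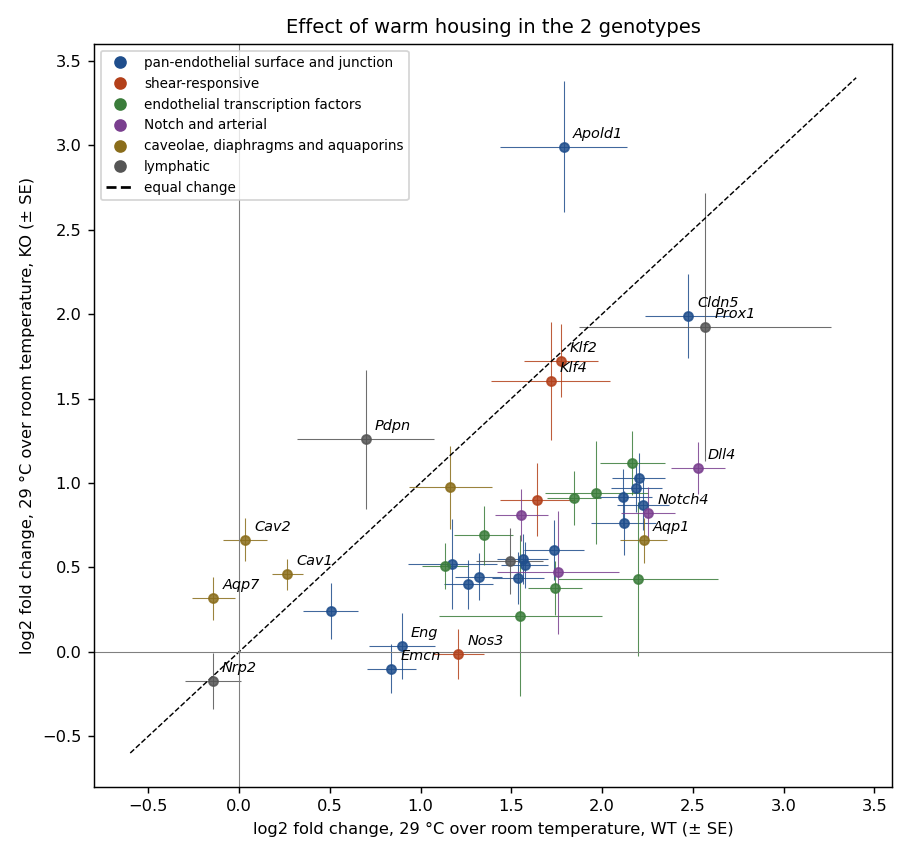
Log2 fold change of 29 °C over room temperature in WT (horizontal axis) against that in KO (vertical axis) for the 42 genes, with SE as whiskers, colours by role and a dashed line of equal change. Most points lie below the line, Klf2 and Klf4 lie near it, and Apold1 lies above it at 1.79 in WT and 2.99 in KO. The axes share no library with each other, but each shares libraries with the comparisons of genotype.

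The interaction term tested whether the genotype difference itself depended on housing. It was negative and called for 23 of the 42 genes, which means a larger deficit of KO at 29 °C than at room temperature, and positive and called for 1. Over all genes 12.3% had a called negative and 16% a called positive interaction, and the medians were -0.94 over the 42 and 0.01 over all genes tested. Called were 13 of the 17 surface and junction genes, 4 of the 8 transcription factors, 3 of the 4 Notch genes, and Nos3, Aqp1 and Flt4 in the negative direction, with Aqp1 at -1.57 ± 0.19 (log2, SE, edgeR adjusted p = 3.7e-05) and Nos3 at -1.22 ± 0.20 (edgeR adjusted p = 4.6e-04). Cav2 was the gene with a positive call, at 0.63 ± 0.18 (edgeR adjusted p = 0.0137).

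The genes with the largest differences at room temperature were not among those called. The interaction was -0.05 ± 0.29 for Klf2 (log2, SE, edgeR adjusted p = 0.917), -0.11 ± 0.47 for Klf4 (edgeR adjusted p = 0.886) and -0.48 ± 0.34 for Cldn5 (edgeR adjusted p = 0.308). For Apold1 it was 1.2 ± 0.51 (edgeR adjusted p = 0.0979). A term that misses the threshold does not show that the effect of genotype was equal in both housings. At 29 °C the ratio of Klf2 to Pecam1 counts overlapped between genotypes, from 0.975 to 1.51 in WT and from 0.768 to 1.06 in KO. The ratio of Cldn5 to Pecam1 did not, from 1.14 to 1.97 in WT and from 0.777 to 0.832 in KO. That of Aqp1 ran from 4.95 to 7.56 in WT at 29 °C and from 2.22 to 3.54 in the other 3 groups.

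The 4 lymphatic genes gave a mixed picture. Flt4, which is also made by some blood capillaries, was at 6.74, 6.40, 5.71 and 7.10 CPM in WT and 4.91, 5.23, 7.01 and 6.10 CPM in KO at room temperature, with overlap. At 29 °C it was at 17.7, 20.0, 11.6 and 23.6 CPM in WT and 7.20, 8.60 and 9.60 CPM in KO, with no overlap (log2 difference -1.11 ± 0.20 SE, edgeR adjusted p = 2.8e-04). Nrp2, a co-receptor for lymphatic growth factors and the most abundant of the 4 by CPM, was at 85, 114, 90.2 and 83.9 CPM in WT and 68.8, 66.1, 74.0 and 70.3 CPM in KO at room temperature, and was not called (edgeR adjusted p = 0.318) although the KO libraries were all lower.

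At 29 °C Nrp2 was at 87.4, 90.3, 58.2 and 102 CPM in WT and 66.6, 48.7 and 70.3 CPM in KO. The groups overlapped, and its call (-0.45 ± 0.17, edgeR adjusted p = 0.0386) was lost in 11 of the alternative fits. Prox1, the factor that defines lymphatic endothelium, was at 0.382, 0.797, 0.450 and 0.202 CPM in WT and 0.0713, 0.188 and 0.520 CPM in KO at 29 °C, levels of few counts that overlapped. At room temperature it was at 0.126 CPM or less in every library. Pdpn, a mucin of lymphatic vessels also found on stromal cells, was between 1.17 and 2.39 CPM in WT and between 1.16 and 2.09 CPM in KO at 29 °C. Of a further list of 13 lymphatic genes 12 were tested. At 29 °C 3 of them were higher and 3 lower in KO, shares near those over all genes (24.7% and 20%). Lyve1, a defining marker, was at 3.4 ± 1.57 CPM in WT and 1.10 ± 1.04 in KO (edgeR adjusted p = 0.0847).

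Further lists of vessel genes were counted beside the same shares over all genes, 20% lower and 24.7% higher in KO at 29 °C. At room temperature the shares were 0.186% lower and 0.053% higher, so an absence of calls in lists this small says little. Of 30 other endothelial genes, 0 were called at room temperature, and at 29 °C 24 were lower and 1 higher in KO, with a median log2 difference of -1.12. The receptor genes Tek and Kdr were among those lower, at -1.33 ± 0.13 and -1.07 ± 0.23, and Gpihbp1, the protein that carries lipoprotein lipase across capillaries, differed by -1.69 ± 0.14. Of 19 other genes of the flow response, 10 were lower and 2 higher (Hmox1 at 1.61 ± 0.27 and Cyp1b1 at 1.27 ± 0.23, which code for a haem-degrading enzyme and a cytochrome P450), including Thbd and Edn1 among the lower at -0.80 ± 0.25 and -0.91 ± 0.26. At room temperature 0 of the 19 were called. Of 16 other Notch and arterial genes, 7 were lower and 1 higher at 29 °C, and at room temperature Heyl, a Notch target found in mural cells, was lower by a called log2 difference of -0.69 ± 0.13 (edgeR adjusted p = 0.0411).

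Markers of other cells moved with the groups too, beside 20% of all genes lower and 24.7% higher in KO at 29 °C. The summed CPM of 11 platelet and erythroid genes was 2792 to 6079 in WT and 1467 to 2788 in KO at 29 °C, against 719 to 1252 and 625 to 984 at room temperature, and 9 of the 11 were lower in KO at 29 °C. The 17 surface and junction genes summed to 2002 to 2531 CPM in WT and 850 to 1153 CPM in KO at 29 °C, so the blood and endothelial sums were both highest in WT at 29 °C. Brown adipocyte markers went the other way, with 10 of 10 lower at 29 °C than at room temperature in WT, against 32.8% of all genes. Their sum was 10320 to 11272 CPM in WT at 29 °C, 17257 to 21223 in KO at 29 °C and 17817 to 27935 at room temperature. Ucp1, the uncoupling protein of brown fat, was at 1019 ± 203 CPM in WT and 7233 ± 1240 in KO at 29 °C. Whether the shares of adipocyte and blood transcripts had a part in the endothelial values was not tested.

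Mural cells, which wrap the endothelium, had 5 of 12 genes lower and 2 higher in KO at 29 °C, against 20% and 24.7% of all genes, with a summed level of 671 to 926 CPM in WT and 620 to 744 CPM in KO. Their median log2 difference was -0.27, against -1.08 for the surface and junction genes. The pericyte gene Rgs5 differed by -0.60 ± 0.17 and the smooth muscle gene Acta2 by -0.85 ± 0.27. Leukocyte and macrophage genes summed to 182 to 311 CPM in WT and 303 to 413 CPM in KO at 29 °C. Of these 10 genes 3 were called higher and 1 lower in KO, with a median log2 difference of 0.22. Of 9 lymphocyte genes 8 were higher in KO, among them Cd3e from 0.248 ± 0.0117 to 2.14 ± 0.816 CPM. Immediate early genes can rise during dissection, and they overlap in their triggers with Klf2, Klf4 and Apold1. At room temperature they summed to 900 to 1305 CPM in WT and 300 to 855 CPM in KO. There 0 of 16 were called, against 0.186% of all genes lower and 0.053% higher. The median log2 difference was -0.22, and 13 of the 16 were below 0, against 7227 of 15083 over all genes. At 29 °C the early genes summed to 839 to 1377 CPM in WT and 798 to 2125 CPM in KO. Of them 2 were called higher and 1 lower, 5 of the 16 were below 0, and the median log2 difference was 0.38. Their part in the values of Klf2, Klf4 and Apold1 was not tested.

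**Figure D5:**
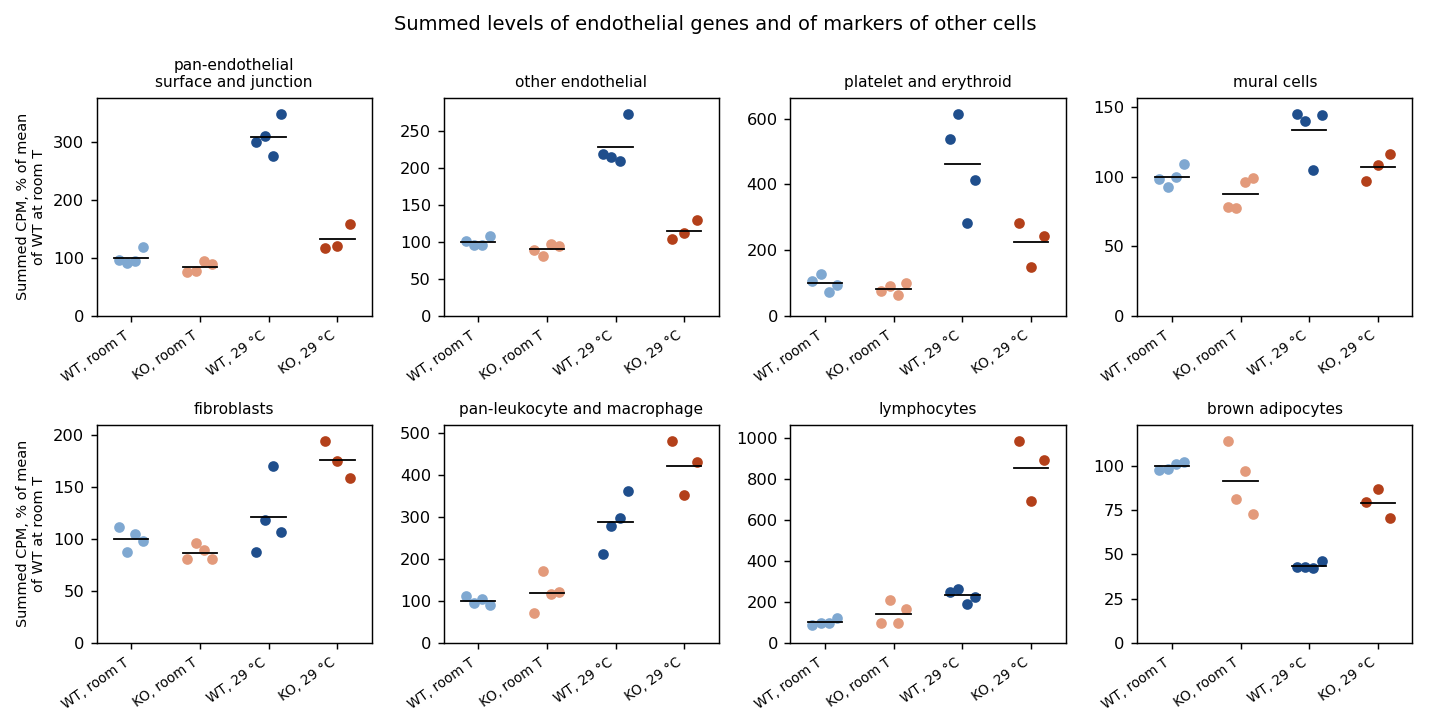
Summed CPM of 8 marker lists in each library as a percentage of the mean of WT at room temperature (linear axes from 0, 1 point a library, group means as horizontal bars). Both endothelial lists and the platelet and erythroid list are highest in WT at 29 °C, the leukocyte and lymphocyte lists are highest in KO at 29 °C on average, and the brown adipocyte list is lowest in WT at 29 °C.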

How the data were processed

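Per the submitters' processing notes, STAR 2.7.10a and RSEM 1.2.28 were used with the mm10 build on paired reads of 150 bp, and DESeq2 1.3.40 is named too. The deposited table holds the authors' expected counts of 24030 genes in 15 libraries, of which 7.26% have decimals; they were rounded to whole numbers. Strandedness of the counting was not stated in these sources, so antisense overlaps (Nos3 with Gm15587 and Atg9b, Sox17 with Gm37587) cannot be separated.

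Genes were filtered with filterByExpr (minimum count 10), scaled by TMM and fitted in edgeR 4.0.16 (robust quasi-likelihood, R 4.3.3) with 4 groups in 1 model and 11 residual degrees of freedom. P-values were adjusted by Benjamini-Hochberg over 15083 genes, with calls below 0.05. Alternatives used DESeq2 1.42.0, limma-voom (limma 3.58.1), other scaling and filters, a limit of 1.5-fold, a replicate block and libraries left out. The pipeline was tested on simulated data. The members and lists were chosen with earlier results of these data known. All 42 genes and Park7 could be named. From each other list the genes with the smallest p between genotypes (3 at 29 °C, 2 at room temperature) and a few defining markers could be named. Sequences come from RefSeq (GRCm38.p6), and gene lengths and positions from GENCODE.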

Additional observations from a re-analysis of the deposited data

Results flagged for a closer look

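In 24 of the 42 genes the genotype difference itself changed between room temperature and 29 °C, by the interaction term of the edgeR fit. The term is the log2 difference of KO over WT at 29 °C minus the same at room temperature. It was called negative for 23 genes and positive for 1, against 12.3% and 16% of all genes. Among surface and junction genes the terms were -0.87 for Pecam1, -0.86 for Cdh5, -1.18 for Esam, -1.20 for Icam2, -0.94 for Emcn, -0.86 for Eng, -1.36 for Robo4, -1.36 for Ecscr, -1.01 for Mmrn2, -1.22 for Egfl7, -1.13 for Tie1, -1.10 for Ptprb and -1.06 for Acvrl1. Among transcription factors they were -1.36 for Erg, -0.63 for Ets1, -0.94 for Tal1 and -1.05 for Lyl1. For the Notch genes they were -1.44 for Dll4, -0.75 for Notch1 and -1.43 for Notch4. Nos3 had -1.22, Aqp1 -1.57 and Flt4 -0.95, and Cav2 was the one gene in the other direction with 0.63.

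In 10 of 126 tests of a gene within a group of 4 libraries, 1 library stood apart from the others, where chance gives about 5%. The tests share libraries and are not independent, so the count was not tested against that share. In WT library 4 at 29 °C Esam (206 CPM), Sox7 (71.6 CPM), Sox18 (128 CPM) and Hey1 (23.2 CPM) were high. In KO library 3 at room temperature Emcn (32.4 CPM) and Tal1 (2.98 CPM) were high. In WT library 4 at room temperature Acvrl1 (22.4 CPM) and Nos3 (31.3 CPM) were high. In WT library 1 at room temperature Dll4 was high (11.3 CPM) and Aqp7 was low (168 CPM).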

How the results depend on the processing

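No difference of the 42 genes changed sign between the main fit and an alternative where either fit called it. Other results changed sign without a call in either fit, or lacked an adjusted p-value. These were 27 at room temperature, 6 between genotypes at 29 °C, 5 and 18 for housing in WT and KO, and 20 in the interaction. Of the genes called, 0 of 2 at room temperature, 28 of 35 between genotypes at 29 °C, 36 of 38 for housing in WT, 13 of 30 for housing in KO and 19 of 24 in the interaction were called under every alternative. The 2 genes called lower in KO at room temperature became 1 with no filter on low counts, 1 with the replicate block, 0 with only the libraries compared, 4 with DESeq2, 0 without the 3 libraries with muscle transcripts, 0 without KO libraries 2 and 4, and 1 without WT library 4 and KO library 1 at 29 °C, the last 3 settings having been chosen after seeing the data. Leaving out each library in turn gave 0 to 2. Over all genes these fits called 4 to 37 lower, against 28 in the main fit and 139 with DESeq2. The adjusted p over all alternatives ran from 6.9e-06 to 0.529 for Cldn5 and from 1.0e-06 to 0.345 for Klf2, with the lowest from DESeq2.

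At 29 °C the count called lower in KO was 30 to 36 with each library left out. The 1 gene called higher, Cav2, became 0 with the limit of 1.5-fold and 0 without the muscle libraries. For housing the leave-one-out ranges were 38 to 39 in WT and 21 to 32 in KO, and the KO count was 14 without the muscle libraries. In the interaction the count lower was 21 to 29 and the count higher 1 to 3 (3 without KO library 1 at room temperature and 2 without WT library 4 at 29 °C), and the latter was 3 with limma-voom, 0 without the muscle libraries and 2 without WT library 4 and KO library 1 at 29 °C. Whether equal replicate numbers mark paired libraries is not known. Same-numbered deviations correlated between -0.276 and 0.33. Between genotypes at 29 °C, deviations with unlike numbers correlated between -0.608 and 0.504, so the correlations cannot decide it. The replicate block moved no other count by more than 1.5 times. The causes were not tested. Groups of 3 or 4 libraries limit what could be called, and Prox1 rests on few counts. The number of calls over all genes changed between settings as well.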

Other observations

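Of 7 venous genes 3 were lower and 1 was higher in KO at 29 °C, where 20% of all genes were lower and 24.7% higher. The receptor gene Ephb4 and the venous factor Nr2f2 differed by -0.83 ± 0.22 and -0.69 ± 0.19 (log2, SE, edgeR adjusted p = 0.00636 and 0.0073), whereas Vcam1, a leukocyte adhesion molecule also made outside endothelium, differed by 1.02 ± 0.25 (edgeR adjusted p = 0.00347). Among mural genes Higd1b, a pericyte gene, differed by -1.24 ± 0.21 and the proteoglycan gene Cspg4 by 0.71 ± 0.17. Ackr3, a chemokine scavenger receptor, fell in WT at 29 °C by 1.85 on the log2 scale and was higher in KO than in WT at 29 °C by 1.52 ± 0.28 (edgeR adjusted p = 0.000644). Bcl6b, an endothelial transcriptional repressor, was at 21.5 ± 9.41 CPM in WT and 9.42 ± 1.90 in KO at room temperature (SD, n = 4 each, edgeR adjusted p = 0.114) and at 204 ± 21.2 (n = 4) and 53.9 ± 16.5 (n = 3) at 29 °C.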
